A study of Xenopus laevis with 6 samples.

Results

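The homeologous chromosomes 3L and 3S of the frog Xenopus laevis carried 4920 of the 44936 accessible regions listed in gastrula ectoderm at stage 10, and 6816 of the 61049 listed at stage 12. A region is a distinct interval of an ATAC-seq list, and members are all intervals on either chromosome: 3166 on 3L and 1754 on 3S at stage 10, and 4479 and 2337 at stage 12. The pair was chosen by its measured region density, because it has the largest excess of the L over the S chromosome among the 9 pairs, so that excess is a description and was not tested. ATAC-seq marks open chromatin by the insertion of sequencing adapters with the transposase Tn5. Animal caps, which are explants of the ectoderm, were cut from stage 9 embryos and grown on to early gastrula (stage 10) or to late gastrula (stage 12). Each stage had 3 libraries of 2 explants each, and the labels name no strain, genotype or treatment that differs between the groups. The 3 libraries of a stage share 1 deposited list, so the spread between libraries is unknown and no test between stages or chromosomes was made. Intervals given below are 95% intervals for counting error only, and the regions of a list are not replicates.

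Xenopus laevis is an allotetraploid that arose by hybridisation of a pair of ancestral frog species. Each of its chromosome pairs joins a subgenome that has kept more of its genes, on the L chromosome, with a subgenome that has lost more, on the shorter S chromosome. Accessible chromatin in an embryo marks promoters, enhancers and other bound elements, and in the ectoderm of the gastrula these include elements used as cells leave pluripotency for epidermal or neural fates. No expression was measured, so the labelled tissue was not checked against marker genes. A region that overlapped no region of the other list by at least 1 bp is called single-stage, which held for 22.3% of stage 10 and 45.6% of stage 12 regions on the 18 chromosomes. Positions follow xenLae2, the build that the submitters' processing notes name, and are 1-based.

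Chromosome 3L held the most regions per Mb of the 18 assembled chromosomes and 3S was among the sparser ones. The last listed region ended at 144.2 Mb on 3L and at 120.5 Mb on 3S, and these ends were taken as the spans. Chromosome 3L held 21.96 regions per Mb at stage 10 and 31.1 at stage 12, first of 18 at both stages. Chromosome 3S held 14.6 and 19.4 regions per Mb, in the 13th and the 15th place. The other 16 chromosomes ran from 12.98 (6S) to 21.8 (8L) regions per Mb at stage 10 and from 16.7 (6S) to 29.5 (8L) at stage 12. On the log2 scale 3L exceeded 3S in density by 0.59 (0.51 to 0.68) at stage 10 and by 0.68 (0.61 to 0.75) at stage 12. These intervals overlap. Across the other 8 pairs the L excess ran from -0.03 to 0.38 and from 0.06 to 0.38. In bases covered the excess was smaller, at 0.47 and 0.57 on the log2 scale, because regions on 3L were narrower. By that measure 3L came after 8L at stage 10, with 1.20% against 1.23% of the span covered. At stage 12 it was first, with 1.87% against 1.83% on 8L.

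**Figure D1:**
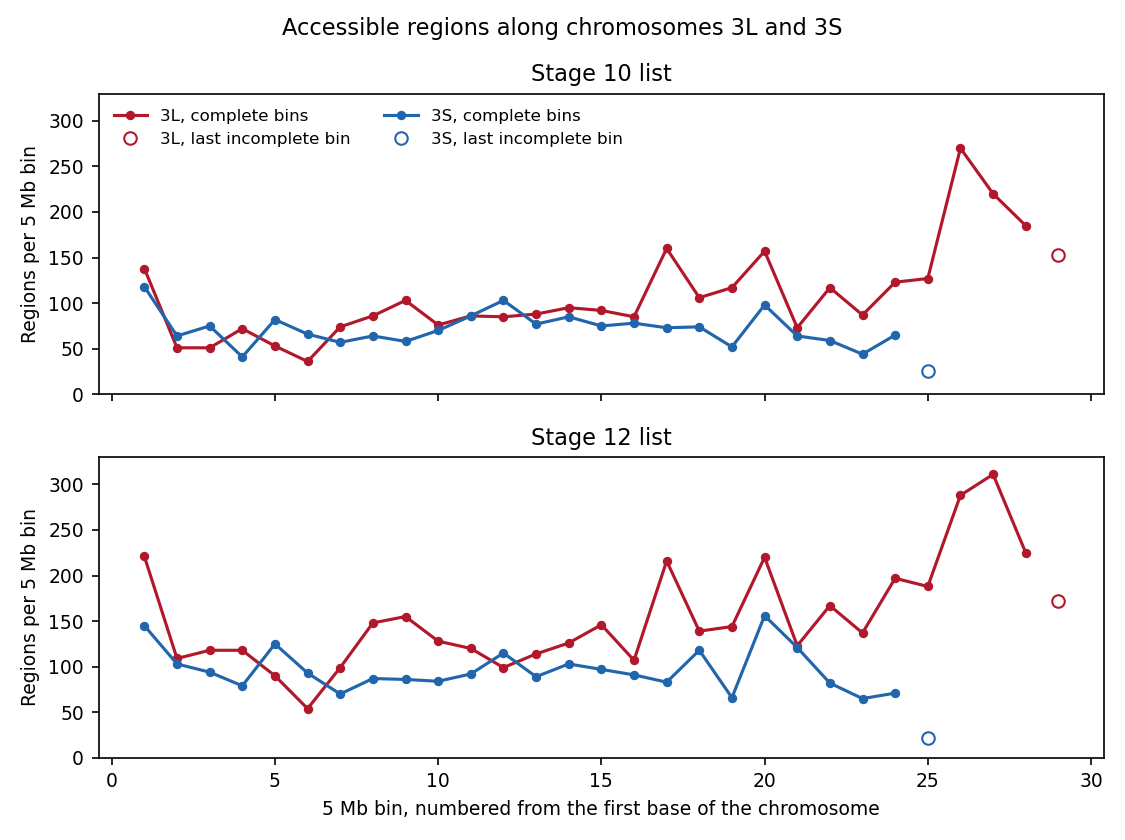
Number of accessible regions in successive 5 Mb bins of 3L (red) and 3S (blue) at stage 10 (upper panel) and stage 12 (lower panel); open circles are the last, incomplete bins. The chromosomes run close together over the first 12 bins at stage 10, and 3L rises to 270 regions in bin 26 at stage 10 and 311 in bin 27 at stage 12.

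The excess of 3L was not spread evenly along the chromosome. The plot of regions by 5 Mb bin compares 28 complete bins of 3L with 24 of 3S. Counts on 3L ran from 36 to 270 regions per bin at stage 10 (median 90) and from 54 to 311 at stage 12 (median 138). On 3S they ran from 41 to 118 (median 71.5) and from 65 to 156 (median 91.5). Over all 491 complete bins of the 18 chromosomes the medians were 72 and 99 regions, so a typical bin of 3S lay near the genome median and a typical bin of 3L above it.

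At the same distance from the first base, 3L exceeded 3S in 18 of 24 bins at stage 10 and in 21 of 24 at stage 12, which describes the excess the pair was selected on. At stage 10 the first 12 bins were nearly level. They held 911 regions on 3L and 884 on 3S, with 3L higher in 6 bins, 3S higher in 5 and 1 tie. In bins 13 to 24, 3L was higher in 12 of 12 at both stages, with 1300 against 844 regions at stage 10 and 1836 against 1142 at stage 12. By stage 12 the first 12 bins had also drawn apart, to 1459 regions on 3L and 1173 on 3S. The widest differences in favour of 3L lay in bins 17, 19, 20, 22 and 24 at stage 10, with 87, 65, 59, 58 and 58 more regions than 3S. At stage 12 they lay in bins 17, 24, 22, 19 and 1, with 133, 126, 85, 78 and 76 more. The bins where 3S was higher at both stages were 5, 6 and 12. The sparsest bin of 3L at both stages was bin 6, from 25 to 30 Mb, with 36 and 54 regions, where the same distance along 3S held 66 and 93.

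**Figure D2:**
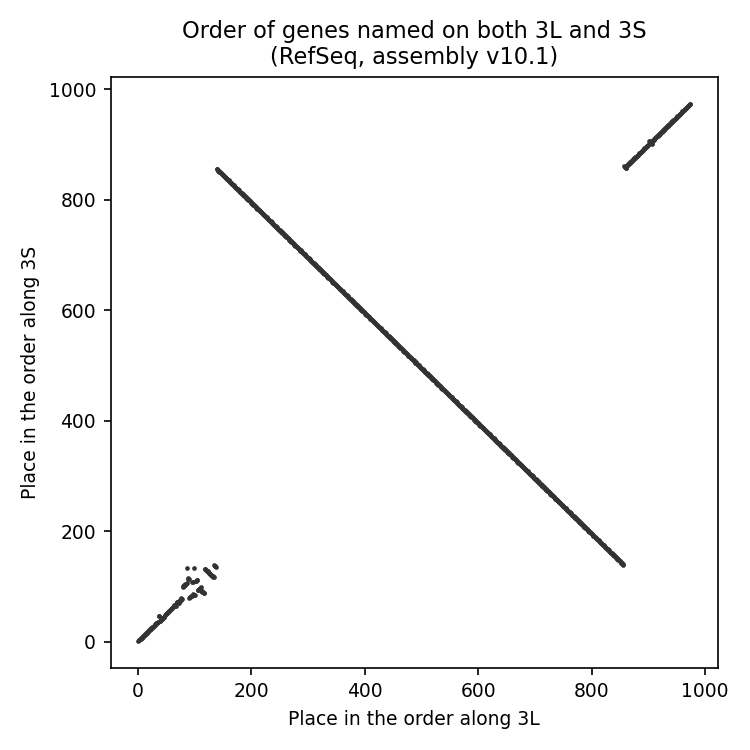
Order along 3L (x axis) and along 3S (y axis) of 974 protein-coding genes named on both chromosomes in the RefSeq table of assembly 10.1, each a point at its place in the order. The first 138 and the last 118 genes lie near a rising diagonal and the 718 between them on a falling one.

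By gene order in a later build, equal distance along 3L and 3S does not mean homeologous sequence over most of the pair. The RefSeq gene table of assembly 10.1, a later build than the lists, was used for gene names, gene order and gene counts only. It gives 2580 protein-coding genes on 3L and 1683 on 3S, a ratio of 1.53 that is the second highest of the 9 pairs after pair 8 (1.63). Names are paired on both chromosomes for 974 genes, 63.9% of the named genes of 3L and 83.4% of those of 3S. Their order, drawn in the plot of gene order, falls into 3 blocks. The first block of 138 genes opens with eps8, a signalling adaptor, and lies at the start of both chromosomes, with 95 rising and 42 falling steps between neighbours. The middle block of 718 genes, from zmat2, a splicing factor, to tecr, an enzyme of fatty acid elongation, is reversed on 3S relative to 3L. Within it, 715 of the steps between neighbours fall and 2 rise. The last block of 118 genes, from colgalt1, a collagen galactosyltransferase, to polr2a, the large catalytic subunit of RNA polymerase II, lies at the end of both and again runs mostly the same way, with 106 rising and 11 falling steps. That the order is the same in xenLae2 was not checked. If it is, bins at equal distance from the first base do not face each other in the middle. In assembly 10.1 both chromosomes start with the first block, with part of its order changed. The last block lies at the end of both, but the spans differ in length. Bins counted from the first base thus do not set the far ends against each other. The borders of the blocks could not be placed on xenLae2. With 3S read from its last region, 3L was higher in 66.7% of 24 bins at stage 10 and in 79.2% at stage 12.

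Genes shared by name were sparse toward the ends of 3L and most of all at its far end. When the genes of 3L were cut in order into 10 equal parts, 37 of 258 (14.3%) in the last part had a named partner on 3S, against 58.1% in part 7. Genes without a proper symbol made up 70.2% of that last part and 57.7% of the last part of 3S. These parts come from a gene list of another build and were not joined to the positions of regions. Counted per protein-coding gene, 3L held 1.23 regions at stage 10 and 3S held 1.04, and at stage 12 the values were 1.74 and 1.39. These rates set regions of xenLae2 against gene counts of assembly 10.1. On this scale the log2 ratio of L to S was 0.24 and 0.32, still the highest of the 9 pairs at each stage. As log2 values these are less than 50% of the log2 ratios per Mb.

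**Figure D3:**
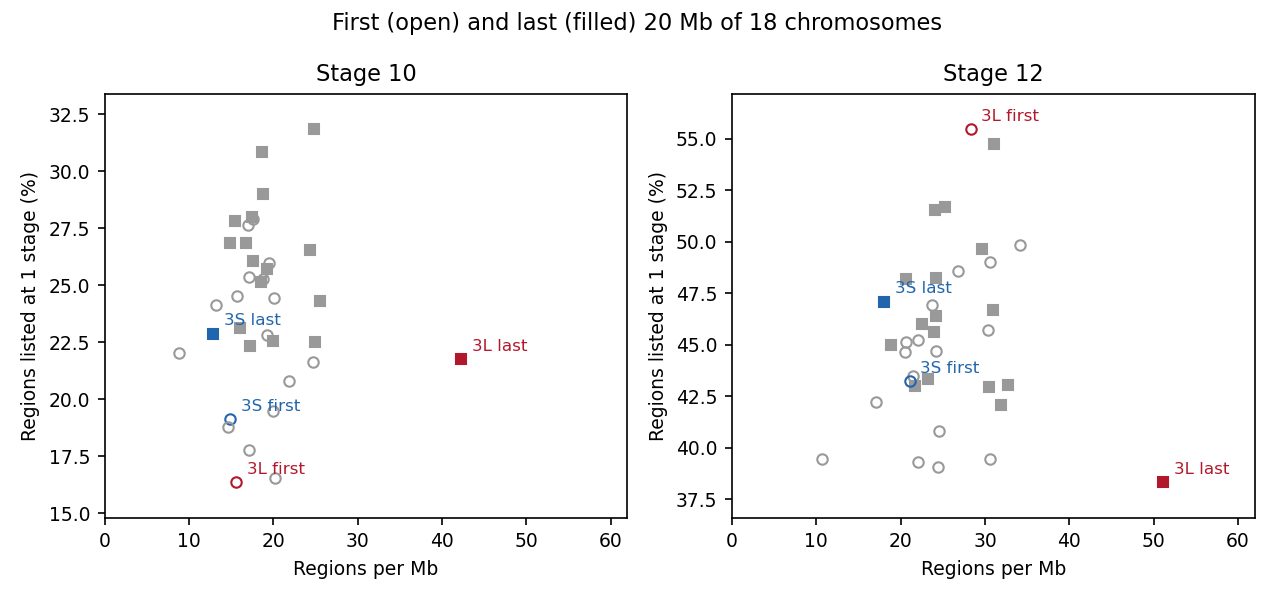
Region density (x axis, regions per Mb) against the percentage of regions listed at 1 stage only (y axis) for the first (open circles) and last (filled squares) 20 Mb of 18 chromosomes, at stage 10 (left) and stage 12 (right); 3L is red, 3S blue and the others grey. The last 20 Mb of 3L lies alone on the right, at 42.3 and 51.2 regions per Mb.

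The far end of 3L was the most crowded stretch of the pair. Its last 20 Mb held 846 regions at stage 10 and 1023 at stage 12, or 42.3 and 51.2 regions per Mb. This was the highest density among the 36 chromosome ends of that length at both stages. The next were 25.5 regions per Mb (the last 20 Mb of 8S) at stage 10 and 34.1 (the first 20 Mb of 9_10L) at stage 12. The last 20 Mb of 3S was sparse. It held 258 and 361 regions, or 12.9 and 18.1 per Mb, the 35th and the 34th of 36. The length of 20 Mb was chosen after the profile was seen.

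That stretch is 13.9% of the span of 3L and held 26.7% of its regions at stage 10 and 22.8% at stage 12. Had 3L carried the density of 3S throughout, it would have had 1067 fewer regions at stage 10 and 1682 fewer at stage 12. The last 20 Mb accounts for 52.0% of that excess at stage 10 and for 37.7% at stage 12. The first 20 Mb accounts for 1.95% and 10.6%, and the middle for 46.1% and 51.7%. Without the last 20 Mb of both chromosomes, the density excess of 3L was 0.33 on the log2 scale at stage 10 and 0.50 at stage 12.

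At finer scale the crowding peaked in a few windows. Among 2498 windows of 1 Mb on the 18 chromosomes, the window of 3L from 136 to 137 Mb held most regions at both stages, with 114 at stage 10 and 108 at stage 12. The window from 129 to 130 Mb held 93 and 101 regions and ranked 3rd and 2nd. Windows had a median of 14 regions at stage 10 and 19 at stage 12. In the window at 129 Mb the median gap between neighbouring regions was 1182 bp at stage 10, against 11.8 kb over all of 3L. Regions there were also narrow, with a median of 256 bp. Of the 93 regions at stage 10, 16.1% were listed at that stage only, against 20.8% on all of 3L and 22.3% over the 18 chromosomes.

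Clusters, taken as runs of at least 5 regions with gaps of at most 10 kb, describe the same crowding and follow density, so they are no independent result. On 3L, 759 regions (23.97%, interval 22.5% to 25.5%) lay in 101 clusters at stage 10 and 1430 (31.9%, 30.6% to 33.3%) in 185 at stage 12. On 3S, 182 (10.4%, 9.03% to 11.9%) lay in 29 clusters and 388 (16.6%, 15.1% to 18.2%) in 59. These shares were the highest and the lowest of the 18 chromosomes at both stages. Of the clusters of 3L, 41 at stage 10 and 56 at stage 12 began in its last 20 Mb. When the allowed gap was set to 0.25 of the mean gap of each chromosome, the shares drew together. They were 25.4% on 3L and 19.7% on 3S at stage 10, and 25.1% and 22.4% at stage 12. This scaling allows for the density of a whole chromosome but not for differences in density along it.

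The largest clusters of the 18 assembled chromosomes lay on 3L at both stages. At stage 10 it was a run of 33 regions from 129082182 to 129160150, with a median width of 256 bp. A stage 12 cluster of 38 regions, from 129054446 to 129149037, covers most of the same stretch. The largest at stage 12 was a run of 40 regions from 136359835 to 136483646, and 31 regions were clustered from 136380641 to 136461188 at stage 10. A further run from 128873212 to 128938131 held 29 regions at stage 10, and from 128879819 to the same end 30 at stage 12. Of the regions in these 3 stage 10 clusters, 9.09%, 16.1% and 24.1% had no overlap at stage 12, against 22.3% over all 18 chromosomes. The largest clusters of 3S held 13 regions at stage 10, from 1561044 to 1604745, and 14 at stage 12, from 5297901 to 5336889, both near its start. On the other 16 chromosomes the largest cluster held 12 to 25 regions at stage 10 and 13 to 35 at stage 12.

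**Figure D4:**
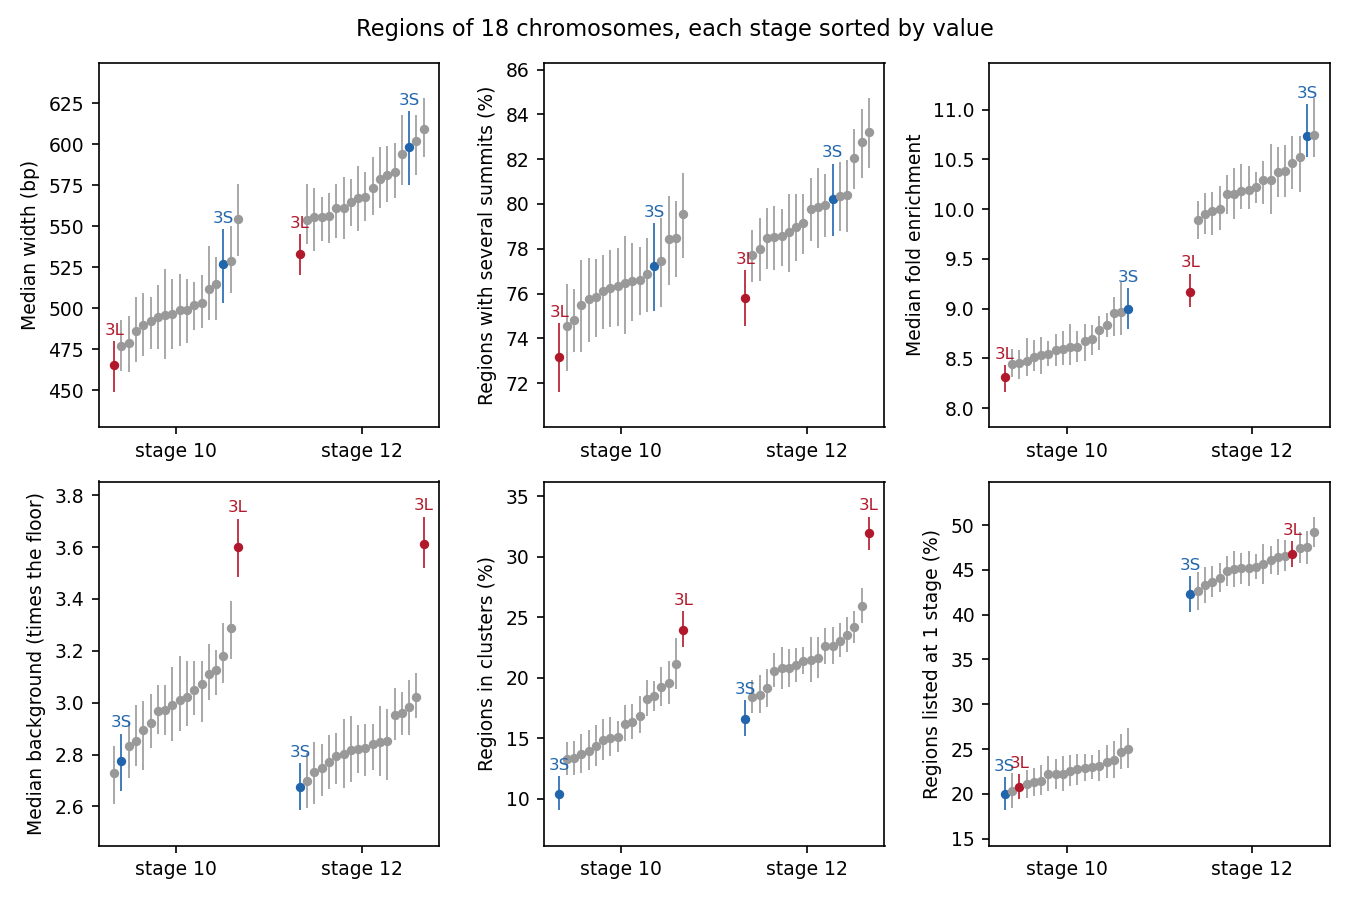
Measures of the regions of 18 chromosomes at stage 10 and stage 12, each stage sorted by value, with 95% intervals as bars (order-statistic intervals for medians, Wilson intervals for shares); 3L is red and 3S blue. At both stages 3L has the narrowest regions, the lowest fold enrichment and the highest local background, and 3S lies toward the other end.

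Taken over whole chromosomes, regions on 3L were narrow, had few summits and rose less above their surroundings. Those on 3S were broad and stood out. A summit is a local peak of reads within a region. The median width on 3L was 465.5 bp (449 to 480 bp) at stage 10 and 533 bp (520 to 545 bp) at stage 12, the lowest of 18 chromosomes at both stages. On 3S it was 527 bp (503 to 548 bp) and 598 bp (575 to 620 bp), in the 3rd place at both. The other 16 ran from 477 to 554.5 bp at stage 10 and from 554 to 609 bp at stage 12. Without its last 20 Mb, 3L had a median width of 483 bp at stage 10, within that range of whole chromosomes. At stage 12 it was 541 bp, still below the range. Of the 9 pairs, pair 3 had the lowest ratio of L to S width at both stages, 0.883 and 0.891. Pair 8, second in density excess, came next with 0.892 and 0.933.

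Regions of 3L had 2.81 summits on average at stage 10 and 2.86 at stage 12, against 3.03 and 3.08 on 3S, which had the most of any chromosome. The mean on 3L was the lowest of 18 at stage 10 and came 16th at stage 12. Several summits were listed in 73.2% (71.6% to 74.7%) of the regions of 3L and 77.3% (75.2% to 79.2%) of those of 3S at stage 10. At stage 12 the shares were 75.8% (74.5% to 77.1%) and 80.2% (78.6% to 81.8%). The share on 3L was the lowest of 18 at both stages. The other 16 ran from 74.5% to 79.5% at stage 10 and from 77.7% to 83.2% at stage 12. Without its last 20 Mb the share on 3L was 76.3% at stage 10, within that range of whole chromosomes, and 77.0% at stage 12, below it.

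Fold enrichment, the authors' value for a region's best summit over its local background, was lowest on 3L. Its median was 8.32 (8.16 to 8.43) on 3L and 9.00 (8.79 to 9.21) on 3S at stage 10, and 9.17 (9.02 to 9.35) and 10.7 (10.5 to 11.1) at stage 12. The local background itself was solved from the fold enrichment and its −log10 p and is given in multiples of the floor, the most common background of the list. It was 3.60 floors (3.48 to 3.71) on 3L at stage 10 and 3.61 (3.52 to 3.72) at stage 12, the highest of 18. On 3S it was 2.77 (2.66 to 2.88) and 2.68 (2.58 to 2.77). The other 16 chromosomes ran from 2.73 to 3.29 at stage 10 and from 2.70 to 3.02 at stage 12. The number of reads at the best summit was not low on 3L: its median of 34.1 floors at stage 10 and 34.3 at stage 12 was the highest of 18, against 29.5 and 31.5 on 3S. The median −log10 p on 3L was the highest of 18 at stage 10, at 42.3 against 40.4 on 3S. At stage 12 it came 6th, at 88.6 against 93.6 on 3S. Fold enrichment, −log10 p, pileup and background are tied by the way they were solved, so these are not independent measures.

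The local background rose along the bins of both chromosomes. Spearman's rho between bin number and median background was 0.90 on 3L (28 bins) and 0.81 on 3S (24 bins) at stage 10, and 0.84 and 0.87 at stage 12. This is a description, since neighbouring bins share libraries and sequence composition. In the last 20 Mb of 3L the median background was 4.64 floors at stage 10 and 4.35 at stage 12, the median width 407 and 503 bp and the median fold enrichment 7.72 and 8.39. Each was the extreme of the 36 chromosome ends at its stage. Regions of at most 250 bp made up 30.6% (27.6% to 33.8%) of that stretch at stage 10, against 19.3% (17.7% to 21.1%) of the middle of 3L. The last 20 Mb of 3S was also narrow and of high background, at 470 bp and 3.58 floors at stage 10, although it was sparse. In the middle of 3L the background was 3.46 floors at stage 10 and 3.56 at stage 12. Both lay above the highest whole-chromosome median of the other 16, whose middles were not compared. Between bin number and region count rho was 0.70 on 3L and -0.14 on 3S at stage 10. The relation of region count to background was not tested.

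The share of single-stage regions was close on 3L and 3S at stage 10 and lay further apart at stage 12. The share over all 18 chromosomes was 22.3% at stage 10 and 45.6% at stage 12. At stage 10 it was 20.8% on 3L (657 regions, 19.4% to 22.2%) and 19.95% on 3S (350 regions, 18.2% to 21.9%). At stage 12 it was 46.8% on 3L (2094 regions, 45.3% to 48.2%) and 42.3% on 3S (989 regions, 40.3% to 44.3%). The difference was not tested, since regions of 1 list are not replicates. The share on 3S was the lowest of the 18 chromosomes at both stages. The next lowest, 20.3% on 8S at stage 10 and 42.6% on 6S at stage 12, lay within its intervals. The share on 3L came 16th at stage 10 and 4th at stage 12. The gap between 3L and 3S at stage 12, 4.43 percentage points, was the largest of the 9 pairs, of which the other 8 ran from 0.44 to 2.85. Its direction was the same in all 7 settings tried at each stage. A stage 12 share depends in part on how many stage 10 regions are listed, so the gap is not independent of the region counts.

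**Figure D5:**
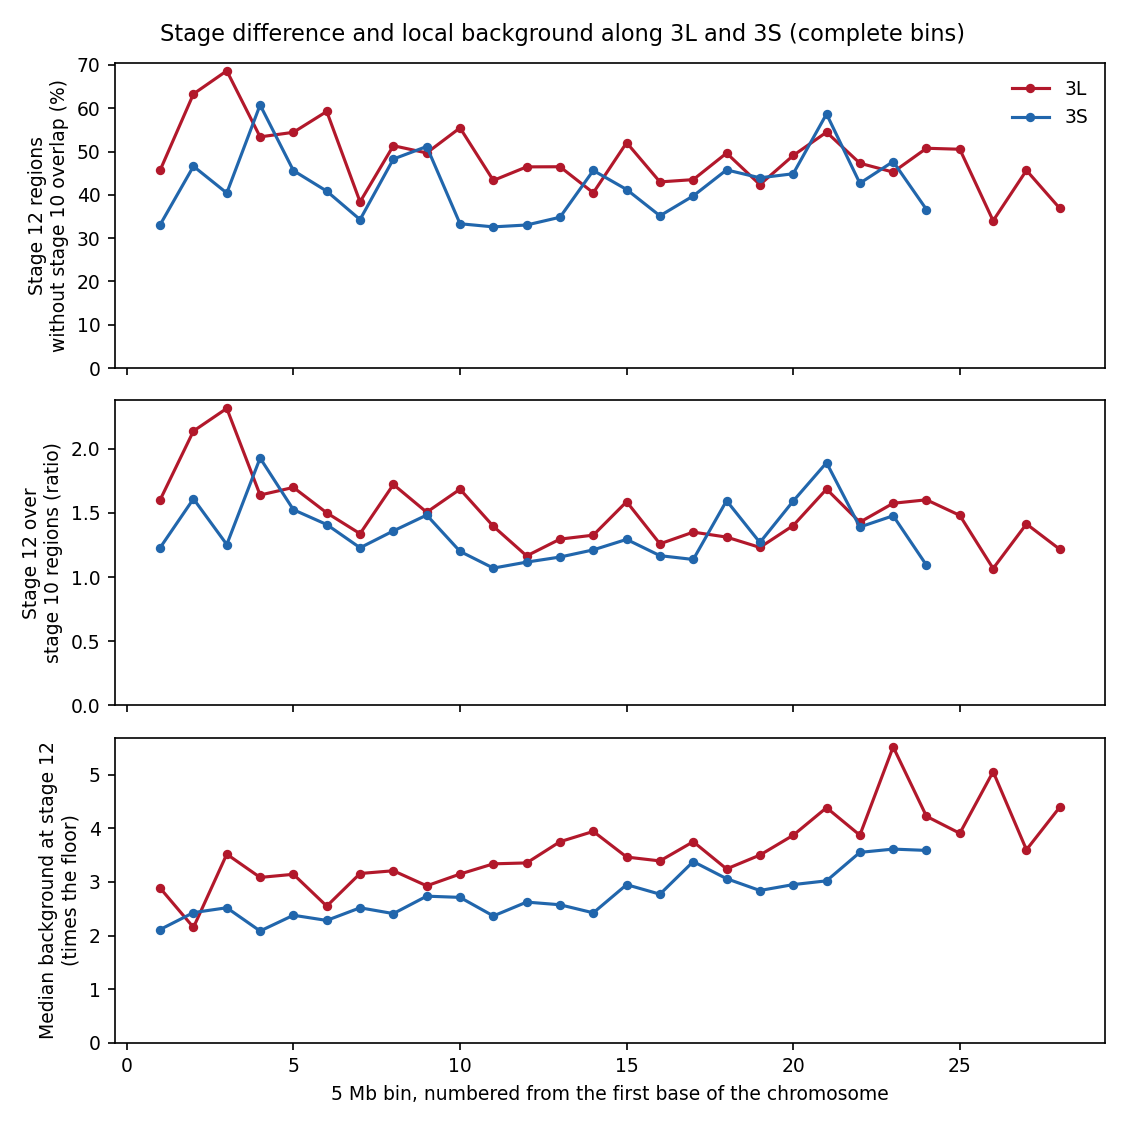
Share of stage 12 regions with no stage 10 overlap (top, percent), ratio of stage 12 to stage 10 region counts (middle) and median local background at stage 12 in multiples of the floor (bottom) in complete 5 Mb bins of 3L (red) and 3S (blue). Near its start 3L has the highest single-stage share (68.6% in bin 3), and its background climbs toward the end.

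Along 3L, the first and the last 20 Mb differed most in what was added by stage 12. In the first 20 Mb, regions numbered 312 at stage 10 and 566 at stage 12, a ratio of 1.81 (1.58 to 2.08). In the last 20 Mb they numbered 846 and 1023, a ratio of 1.21 (1.10 to 1.32), and in the middle 2008 and 2890, a ratio of 1.44 (1.36 to 1.52). These ratios were not ranked among the 36 chromosome ends. A small rise was not particular to the far end of 3L. The first 20 Mb of 2S went from 177 to 213 regions, and that of 6S from 401 to 489. Bins 2 and 3 of 3L more than doubled, from 51 to 109 and from 51 to 118 regions, whereas its crowded bin 26 went from 270 to 288. Of the stage 12 regions in the first 20 Mb, 55.5% (51.4% to 59.5%) were single-stage, the highest of 36 chromosome ends, and in the last 20 Mb 38.3% (35.4% to 41.3%), the lowest of 36. The nearest other ends lay within these intervals, at 54.8% (the last 20 Mb of 4L) and 39.1% (the first 20 Mb of 6S). A stage 12 share depends in part on the region counts of both lists, so it is no independent result beside the ratios. At stage 10 the first 20 Mb had the lowest share of the 36 ends, 16.3% (12.7% to 20.9%), close to 16.5% in the first 20 Mb of 8L.

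The start of 3S did not show the same contrast. Its first 20 Mb went from 298 to 421 regions, a ratio of 1.41 (1.22 to 1.64), and its last 20 Mb from 258 to 361, a ratio of 1.40 (1.19 to 1.64). Of the stage 12 regions, 43.2% (38.6% to 48.0%) in the first 20 Mb and 47.1% (42.0% to 52.2%) in the last were single-stage. For whole chromosomes the ratio of stage 12 to stage 10 regions was 1.41 (1.35 to 1.48) on 3L, second of 18, and 1.33 (1.25 to 1.42) on 3S, the 14th. These intervals overlap. Over all 18 chromosomes the lists held 40211 regions at stage 10 and 55045 at stage 12. The other 16 chromosomes had ratios from 1.29 to 1.48, so both values of pair 3 lay within their range. The stage 12 list is the longer and has the higher background floor (4.7 against 2.2), so stage and depth cannot be told apart in these ratios, which are compared here only between stretches of the same lists.

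Regions listed at both stages were broader than single-stage regions on both chromosomes, and the shared regions of 3L were narrower than those of 3S. The greater width of shared regions was not particular to the pair. On the other 16 chromosomes the medians were 573 bp for shared and 315 bp for single-stage regions at stage 10. At stage 12 they were 720 and 434 bp. A wider region meets the overlap of 1 bp more easily, so this difference is no independent result. How much of it the definition brings was not tested. On 3L, shared regions had a median width of 531 bp (512 to 555 bp) at stage 10 and 683 bp (662 to 702 bp) at stage 12, and on 3S 593 bp (569 to 618 bp) and 749.5 bp (729 to 783 bp). Single-stage regions measured 295 bp (274 to 313 bp) and 414 bp (399 to 433 bp) on 3L and 317 bp (270 to 350 bp) and 435 bp (409 to 460 bp) on 3S, with overlapping intervals. Among regions that met exactly 1 partner in the other list, 2155 on 3L and 1228 on 3S, the stage 12 interval was the wider in 70.1% and 70.4%. The median change was 25 bp on 3L and 30 bp on 3S. Neither value was taken on the other 16 chromosomes. The stage 12 list is the longer and has the higher background floor, so stage and depth cannot be told apart in these widths. At stage 12, 157 of 4479 regions of 3L and 78 of 2337 regions of 3S joined several stage 10 regions. Such regions were not counted on the other 16 chromosomes.

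Single regions show what these summaries rest on. On 3L the region with the highest −log10 p was the same at both stages, from 85547725 to 85548312 at stage 10 and to 85548303 at stage 12. Its pileup was 2694 reads over a background of 65.8 at stage 10 and 5413 over 136 at stage 12, a fold enrichment of 40.3 and 39.6. In floors the pileups were 1225 and 1152, so this region stood almost equally high in both lists.

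A region near the end of 3L, from 143065956 to 143068086, had the most summits of the chromosome, 13 at stage 10 and 14 at stage 12. Its pileup reached 2108 and 1940 floors over a background of 211 and 201 floors, so its fold enrichment was only 9.97 and 9.64. The region with the highest −log10 p of 3S at stage 10 was of the same kind. It ran from 119814014 to 119816570, near the end of 3S, with 13 summits and a pileup of 3514 floors over a background of 382. At stage 12 the same stretch had 17 summits and 332 floors over 42.0, so here the lists differed widely. For the stage 10 value on 3S, no whole-number pileup met the fold enrichment and −log10 p within the tolerance of 0.01, and the same holds for the stage 12 value of the 3L region, so the closest solutions are given. At stage 12 the first place on 3S went to a region from 9183791 to 9184841, with a fold enrichment of 25.5 and a pileup of 682 floors. At stage 10 an overlapping region had 476 floors.

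The widest region of 3L at stage 10, from 142606433 to 142608616 (2184 bp, 10 summits), met 2 regions of the stage 12 list. The widest at stage 12, from 29446034 to 29448349 (2316 bp, 5 summits), lay 33393 bp from any stage 10 region and rose 5.26-fold over background. On 3S the widest at stage 10 was 2892 bp long with 16 summits, from 73320251 to 73323142, and also met 2 narrower stage 12 regions. At stage 12 it was 2617 bp long with 14 summits, from 118311131 to 118313747.

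Single-stage regions of the highest −log10 p lay near the far end on 3L. At stage 10 this was the interval from 143891471 to 143892293, with a fold enrichment of 18.6, a pileup of 537 reads and a distance of 4554 bp to the nearest stage 12 region. At stage 12 it was the interval from 138563411 to 138564292, with a fold enrichment of 9.29 over a background of 20.6 floors, 1488 bp from a stage 10 region. On 3S they were more isolated. The stage 10 interval from 114670248 to 114670417 was 170 bp wide, rose 23.4-fold and lay 432236 bp from any stage 12 region. The stage 12 interval from 60834153 to 60834837 rose 19.6-fold and lay 21317 bp from any stage 10 region.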

How the data were processed

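ATAC-seq libraries (3 per stage, paired ends of 100 nucleotides) were assigned to stages by title. Per the labels, 1 processed list stands for each stage. The submitters' processing notes name bcl2fastq 2.20 and build xenLae2. The aligner, peak caller, replicate filter, Tn5 shift and pooling are not given in the sources used here. The deposited lists have 10 columns in narrowPeak order: per region a score from 540 to 1000, and per summit a fold enrichment (a ratio), a −log10 p and an offset (a −log10 q column was not used). These are the authors' values.

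Lines sharing an interval made 1 region, which took the fold and −log10 p of its best summit. Pileup and background were solved as the whole-number pileup for which fold is pileup plus 1 over background plus 1 and −log10 p is a Poisson tail, within 0.01. This held for 99.96% of stage 10 and 99.95% of stage 12 regions. The most common background, rounded to 2 decimals, was the floor (2.2 and 4.7). Read depth per library is unknown. Overlap needed 1 bp. Shares have Wilson intervals and medians have order-statistic intervals. Chromosome spans end at the last region of either list. Gene names, counts and order came from RefSeq, assembly 10.1. Its coordinates served only to sort the genes and were not joined to the regions. Named regions are, per chromosome and stage, those with the highest −log10 p, most width, most summits and the highest −log10 p among single-stage regions, with the largest clusters and the extreme bins. The genes at block borders, further clusters and 1 Mb windows fall outside that rule and were chosen after their values were seen. Pileup solving, overlap and clustering were tested on simulated data. Python 3.11.15, pandas 2.3.3 and scipy 1.17.1 were used. The pair, the measures and the gene comparison were chosen with earlier results of these data known, and the 20 Mb ends, 1 Mb windows and per-gene counts after values were seen.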

Additional observations from a re-analysis of the deposited data

How the results depend on the processing

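No paired analysis was possible because the 3 libraries of a stage share 1 list that carries no replicate numbers, and leaving out a replicate was not run for the same reason. Of 112 alternative values, 43 stayed within the counting interval of the value reported and 69 moved beyond it. None reversed the sign of the density ratio. The order of 3L and 3S was the same in all settings run for single-stage share, width, summits, clusters and stage ratio. Pairs of values are for stage 10 and stage 12. The log2 density ratio was 0.48 and 0.57 with summits counted and 0.47 and 0.57 with bases. In the upper 50% by −log10 p it was 0.67 and 0.61, so there it was not larger at stage 12. It was 0.33 and 0.50 without the last 20 Mb and 0.24 and 0.32 per gene, and these last settings were chosen after seeing the data. With 20 equal shares of each span, 3L was higher in 90% of shares at stage 10. The single-stage share was 34.1% and 53.4% on 3L and 31.8% and 48.8% on 3S with 50% of both regions overlapping; 15.1% and 38.4% on 3L and 14.9% and 35.3% on 3S with no region of the other list within 1 kb. It was 27.4% and 33.8% on 3L and 26.5% and 29.7% on 3S with equal numbers and 7.93% and 20.2% on 3L and 6.28% and 16.3% on 3S in the upper 50% by −log10 p. Without the last 20 Mb it was 49.2% on 3L at stage 12. Median widths were 620 bp and 717 bp on 3L and 699 bp and 784 bp on 3S in the upper 50%, and 531 bp and 683 bp on 3L and 593 bp and 750 bp on 3S for shared regions. On 3L at stage 10 it was 483 bp without the last 20 Mb. Regions with 5 or more summits made up 16.05% and 16.1% on 3L and 18.9% and 19.98% on 3S. Those with several were 84.6% and 91.3% on 3L and 89.2% and 93.8% on 3S in the upper 50% and 79.3% and 84.6% on 3L and 83.9% and 89.3% on 3S among shared regions, and 76.3% on 3L at stage 10 without the last 20 Mb. Clustered shares were 11.7% and 13.6% on 3L and 4.5% and 6.16% on 3S with gaps of 5 kb, 39.6% and 54.03% on 3L and 23.7% and 36.97% on 3S with 20 kb and 45.4% and 53.6% on 3L and 31.2% and 38.6% on 3S for runs of 3 or more. They were 25.4% and 25.1% on 3L and 19.7% and 22.4% on 3S with gaps of 0.25 of the mean, and 16.3% and 26.3% on 3L and 9.56% and 14.9% on 3S without the last 20 Mb. In bases, stage 12 covered 1.56 times the length of stage 10 on 3L and 1.45 times on 3S. Without the last 20 Mb the ratio of regions on 3L was 1.49. For all of these the cause was not tested, except that stricter or looser definitions of overlap, gap and summit number change shares by construction. The depth of single libraries is unknown and limits any statement on stages.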

Other observations

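The longest stretches without any region at either stage lay on 3S and not on 3L. Their length follows region density, on which the pair was chosen, so this is no independent result. On 3S the longest ran from 31947447 to 33189318 (1242 kb), the next from 28161562 to 29273379 (1112 kb) and a further one from 115862505 to 116964401 (1102 kb). On 3L the longest was 729 kb, from 26629904 to 27359374, and a stretch of 719 kb followed it directly, from 27359774 to 28078348. They are separated by a single short listed stretch, and both lie in bin 6, the sparsest of 3L. Stretches over 500 kb numbered 17 on 3L and 19 on 3S. Gaps in the assembly were not examined.

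The 4 windows of 1 Mb with most regions on 3L at stage 10 differed in form. The window from 142 to 143 Mb held 71 regions with a median width of 590 bp and a median background of 4.54 floors. The window from 128 to 129 Mb held 65 regions with a median width of 258 bp and 6.43 floors. In the window from 129 to 130 Mb these values were 256 bp and 5.75 floors, and in that from 136 to 137 Mb 327.5 bp and 6.94 floors.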
